A study of Mus musculus and Homo sapiens with 11 samples.

Results

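The MAP kinase feedback genes described here are 10 genes that encode brakes on the Ras to ERK pathway. They are the dual-specificity phosphatases Dusp1, Dusp4, Dusp5 and Dusp6, the Sproutys Spry1, Spry2 and Spry4, and the Sprouty-related proteins Spred1, Spred2 and Spred3. They were chosen by symbol, and all 10 were found among the 24062 genes listed in the table of normalised read counts. Polyadenylated RNA had been sequenced from 6 mouse libraries, 3 of the breast cancer line MMTV-ErbB2 (parental) and 3 of its brain metastatic derivative, MMTV-ErbB2-BrM 2a (BrM). In this mouse model the promoter of the mouse mammary tumour virus drives ErbB2, the receptor tyrosine kinase also called HER2, which both groups share. Both groups were read as cells grown in culture without a drug or other agent, since the growth protocol names only medium, serum, glutamine and antimicrobials. The design text of the series speaks instead of brains taken from mice that carried human lines, so the source of these mouse libraries rests on their own labels. The medium is given as DMEM- or RPMI-based and the library kit as 1 of 2, in neither case by library, so a difference of medium or kit between the groups cannot be told apart from one between the lines. The derivative is a single line, and no label says that its 3 libraries, or the 3 parental ones, came from separate cultures, so the p-values speak only to how far these libraries scatter, and part of that scatter may be technical. The series also has 5 libraries of the human line HCC1954, not analysed here.

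Libraries held 29877087 to 46683735 reads assigned to genes, and each member had at least 460 reads in the BrM group and at least 1266 in the parental group. Replicates are numbered 1 to 3 as in the column headers, which could not be tied to single sample titles, and values of a group are given in that order throughout. BrM replicate 1 stood apart from BrM replicates 2 and 3: 3614 and 3654 tested genes were at least 2-fold apart in those pairs, against 220 between BrM replicates 2 and 3 and 976 to 1683 between parental libraries. The 6 epithelial markers (Epcam, Krt8, Krt18, Cdh1, Cldn3 and Cldn4) summed to 102177 to 112683 normalised counts in the parental libraries and 162138 to 184680 in the BrM libraries. Krt8, Krt18 and Cldn3 were called higher in BrM, and Epcam and Cldn4 did not pass. Cdh1 went the other way and was called lower, 1.55-fold (adjusted p = 0.0113 by limma). Of 6 leukocyte markers, Ptprc and Cd3e were at or below 4.88 normalised counts in every library, but the macrophage receptor gene Csf1r rose from 2.04, 1.65 and 18.9 in the parental libraries to 319, 254 and 230 in BrM (adjusted p = 0.0037 by limma), and the lysosomal Cd68 was at 594, 221 and 195 and 2669.6, 209 and 211 (adjusted p = 0.637). The 8 fibroblast and pericyte markers summed to 16102, 14410.2 and 4644 in the parental libraries and to 1109.6, 220 and 226 in the BrM libraries, with Lum at 0 in all 6 libraries and Dcn at 0 in the BrM libraries. Postn and Pdgfrb made most of the parental sums. Postn, Pdgfrb, Dcn and Col1a2 were called lower in BrM, and Col3a1 was not tested. Col1a1 and Pdgfra overlapped between the groups and did not pass (adjusted p = 0.522 and 0.332 by limma). Brain markers summed to 977 to 1299 and 2219 to 2428 and leukocyte markers to 219 to 598 and 449 to 3000.4, parental and BrM, with Olig2 at 0 in all 6 libraries. All 3 brain markers that were tested rose by limma: Mbp, most of that sum, 1.82-fold (adjusted p = 0.00895), Gfap 4.31-fold, from 20.4, 20.6 and 29.3 to 138, 99.5 and 79.2 (0.00637), and P2ry12 14.1-fold, from 3.05, 4.94 and 7.55 to 179, 61.2 and 50.3 (0.00511). Aqp4 and Rbfox3, at no more than 1.22 normalised counts in any library, and Snap25, at no more than 5.67, were not tested. These markers were named after their values were seen, and their part in the results was not tested.

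As background, receptors such as ErbB2 switch on Ras, which passes the signal through the kinases Raf and MEK to ERK, and active ERK drives genes for growth. Several of these genes encode inhibitors of the same pathway, which makes a negative feedback loop. Dual-specificity phosphatases remove the phosphates that activate MAP kinases, Sproutys interfere with the step from receptor to Ras and Raf, and Spreds bring the Ras inhibitor neurofibromin to the membrane. Transcripts of Dusp6, Spry and Etv genes are widely used as a readout of ERK output in tumours driven by receptor tyrosine kinases.

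In the brain metastatic derivative 5 of the 10 genes fell (Dusp1, Dusp4, Spry1, Spred1 and Spred2), 1 rose (Dusp5) and 4 did not pass the test (Dusp6, Spry2, Spry4 and Spred3). Significance was an adjusted p under 0.05 in limma across 13821 genes, of which 28.1% were called, 15.8% as lower and 12.2% as higher in BrM. The median log2 fold change of the members was -0.58, beside -0.05 over all tested genes. The 3 BrM values did not overlap with the 3 parental values for 7 of the 10 members, 6 below and 1 above. Over all tested genes 48.0% did not overlap, 25.7% with BrM below and 22.3% with BrM above. The 10 genes were chosen by name with earlier results of these data known, so these counts describe the group and carry no test of it.

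**Figure D1:**
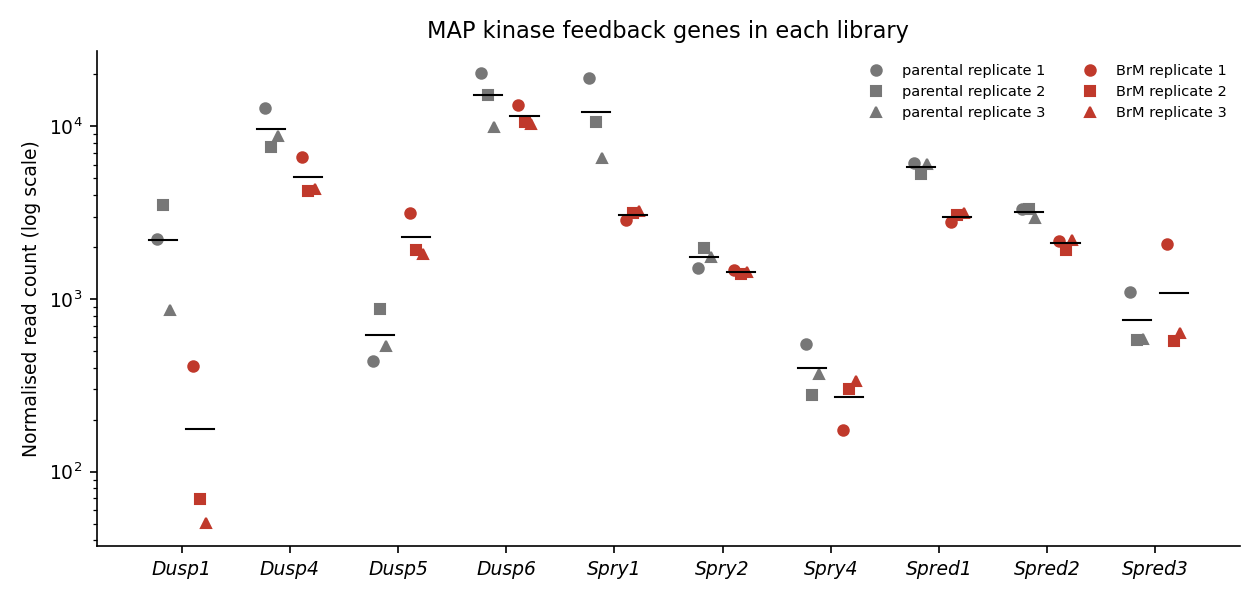
Normalised read count (log scale) of the 10 MAP kinase feedback genes in each of the 3 parental (grey) and 3 BrM (red) libraries, with marker shape giving the replicate and a black line the group mean. Dusp1 is lowest in BrM replicates 2 and 3 at 69.8 and 50.3, Dusp5 is above all parental values in every BrM library, and Dusp6, Spry4 and Spred3 overlap between the groups.

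Dusp1 encodes a nuclear phosphatase that acts on p38, JNK and ERK and is itself an early response gene, induced quickly by serum and stress. The gene lies on the minus strand of chromosome 17, 26505590 to 26562128 (GRCm38). It stood at 2210.3, 3506 and 866 normalised counts in the parental libraries and at 406, 69.8 and 50.3 in the BrM libraries. All BrM libraries were below all parental libraries, but both groups were wide: the highest parental value was 4.05-fold above the lowest, and BrM replicate 1 was 6.77-fold above the mean of the other BrM libraries. Dusp1 fell 16.6-fold (176 ± 200.2 against 2194 ± 1320.3, mean ± SD, n = 3; log2 fold change -4.05, SE 0.88, adjusted p = 0.0168 by limma), the widest difference among the members. The call was lost without parental replicate 1 (adjusted p = 0.0656), parental replicate 2 (0.0678), BrM replicate 2 (0.0586) or BrM replicate 3 (0.0511), and with BrM replicates 2 and 3 averaged (0.0543). Without BrM replicate 1 the fall was 31.3-fold (adjusted p = 0.00119), and with array weights the log2 fold change was -5.31. In bulk RNA, fewer cells of a kind and less RNA per cell cannot be told apart.

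Parental replicates 1 and 2, the highest libraries for Dusp1, were also the highest for the early response genes Fos and Egr1, which were picked after their values were seen. Fos, a transcription factor subunit of AP-1, was at 13338, 20276 and 3210.3 in the parental libraries and 7308, 364 and 329 in the BrM libraries. Egr1, a zinc finger factor induced by ERK, was at 24356, 27479.5 and 4155 and 10495, 1403 and 1285 in the same order. For both genes BrM replicate 1 was above parental replicate 3, so the groups overlapped and neither passed the test (limma adjusted p = 0.107 for Fos and 0.135 for Egr1). Ier3, another early response gene picked in the same way, was at 16746, 14459 and 14052 and 14810.4, 4749.9 and 4515, with BrM replicate 1 inside the parental range and the other BrM libraries below it (adjusted p = 0.109). Other listed genes, also named after their values were seen, went otherwise. Jun was lowest in parental replicate 3 but, at 1393, 1754 and 1690 in BrM, had its lowest BrM value in replicate 1. The means of Fosl1, Myc and Maff were higher in BrM than in parental, and Fosl1 and Myc were highest among parental libraries in replicate 3. None of them passed (adjusted p 0.0662 to 0.418 by limma). Like Dusp1, the summed fibroblast and pericyte markers given above were lower in parental replicate 3 than in the other parental libraries. Their sum was lower again in BrM. The part of early induction, or of these markers, in the fall of Dusp1 was not tested. The gene overlaps Ergic1 on the other strand by 11 exon bases.

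**Figure D2:**
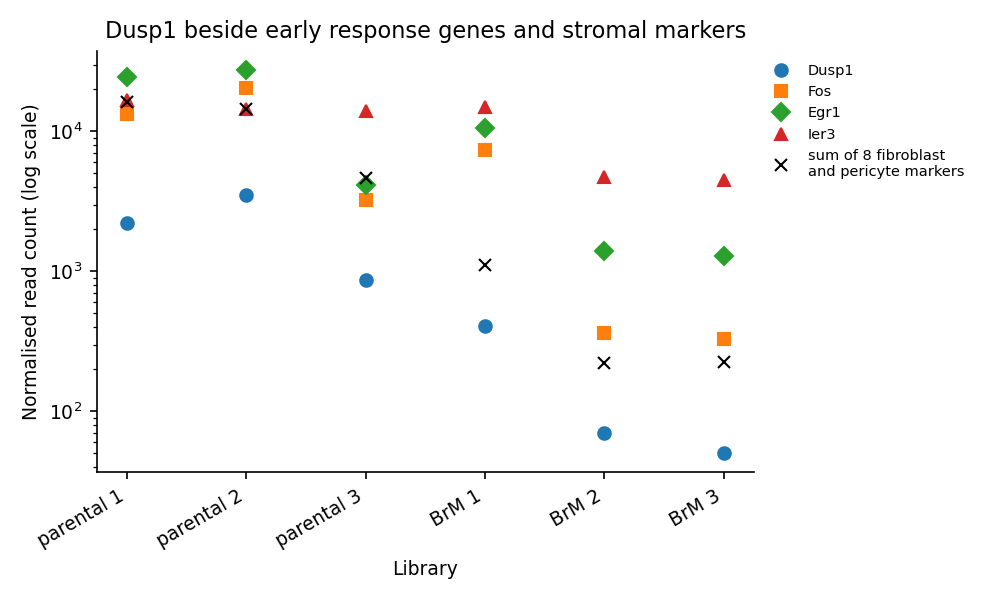
Normalised read count (log scale) of Dusp1, the early response genes Fos, Egr1 and Ier3, and the sum of 8 fibroblast and pericyte markers in each library. Parental replicates 1 and 2 are the highest for Dusp1, Fos and Egr1, BrM replicates 2 and 3 the lowest, and BrM replicate 1 is above parental replicate 3 for Fos and Egr1 but below it for Dusp1.

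Dusp4 encodes a nuclear phosphatase of ERK, JNK and p38 that is itself induced by ERK, and lies on the plus strand of chromosome 8, 34807297 to 34819894. Its values were 12679, 7569 and 8813 in the parental libraries and 6679.5, 4192 and 4356 in the BrM libraries. BrM replicate 1 came closest to the parental range, and the groups did not overlap. Dusp4 fell 1.91-fold (5076 ± 1391 against 9687 ± 2665, n = 3; log2 fold change -0.93, SE 0.26, adjusted p = 0.0404 by limma). This was a borderline call: it was lost when any 1 library other than BrM replicate 1 was left out (adjusted p 0.0588 to 0.127) and with BrM replicates 2 and 3 averaged (0.124), quantile normalization (0.0564) or no intensity trend (0.0612).

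Dusp5 encodes a nuclear phosphatase that acts on ERK and is known as a target of ERK through serum response factor. The gene lies on the plus strand of chromosome 19, 53529109 to 53542431. It was the member that rose, from 438, 872 and 534 normalised counts in the parental libraries to 3133, 1922 and 1815 in the BrM libraries. The lowest BrM value lay above the highest parental value, and BrM replicate 1 was the highest of the 6. Dusp5 rose 3.76-fold (2290.1 ± 732 against 615 ± 228, n = 3; log2 fold change 1.91, SE 0.33, adjusted p = 0.00738 by limma). Its call held in all 21 alternatives, with the log2 fold change between 1.45 and 2.20 and the adjusted p no higher than 0.0311. An antisense gene, AC137853.2, shares 547 exon bases with Dusp5. Whether reads were counted by strand is not given in the sources used here, so reads of the pair cannot be told apart there.

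Dusp6 encodes the cytoplasmic ERK phosphatase and had the highest mean per kilobase of exon in both groups, though in the parental libraries its range overlapped with that of Spry1. It was at 20283, 15127 and 9864 in the parental libraries and 13278, 10553 and 10374 in the BrM libraries. All BrM values lay inside the parental range. The difference did not pass the test (11402 ± 1628 against 15091 ± 5209, n = 3; log2 fold change -0.35, SE 0.27, adjusted p = 0.379 by limma), and its 95% interval ran from -1.01 to 0.30 on the log2 scale. With array weights it passed as lower (-0.50, adjusted p = 0.0201).

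The promoters of Dusp1 and Dusp5, whose transcripts moved in opposite directions, are shown with the matches to 5 motifs, beside that of Spry1, which fell and held none of them. RefSeq promoter sequences of build GRCm38.p6 were matched for 8 of the 10 members, all but Dusp4 and Spry4. The 250 bases before the start site were searched on both strands for the ETS core CCGGAA, the cyclic AMP response element TGACGTCA, the AP-1 site TGANTCA, the TATA box TATAAA and the CArG box of serum response factor. Capitals mark the matches, and bases that GENCODE annotates as exon of the gene were left off the 3′ end of what is printed. Dusp1 is from chr17:26508520-26508722 on the minus strand, Dusp5 from chr19:53528895-53529108 on the plus strand and Spry1 from chr3:37639697-37639946 on the plus strand. The Dusp1 window lies inside the GENCODE span of the gene given above, so the RefSeq start used here is not the outermost GENCODE start.
Dusp1: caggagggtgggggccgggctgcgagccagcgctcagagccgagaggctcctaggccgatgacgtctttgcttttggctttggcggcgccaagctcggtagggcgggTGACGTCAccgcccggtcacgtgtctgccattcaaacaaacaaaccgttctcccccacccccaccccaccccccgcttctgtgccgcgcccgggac
Dusp5: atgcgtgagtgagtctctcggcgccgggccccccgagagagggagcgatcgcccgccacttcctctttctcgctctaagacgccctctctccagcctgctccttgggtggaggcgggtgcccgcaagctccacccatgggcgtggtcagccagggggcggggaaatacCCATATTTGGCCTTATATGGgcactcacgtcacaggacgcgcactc
Spry1: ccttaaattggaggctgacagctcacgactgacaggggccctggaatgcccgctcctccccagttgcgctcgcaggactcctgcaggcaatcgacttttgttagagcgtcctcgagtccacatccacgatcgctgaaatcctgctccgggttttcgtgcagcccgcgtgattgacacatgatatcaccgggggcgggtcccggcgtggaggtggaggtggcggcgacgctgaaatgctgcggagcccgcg
The Dusp1 window held 1 cyclic AMP response element, at -143 to -136 from the start site, a motif found in 1.55% of 32851 promoter windows of the same length. In the Dusp5 window there were 2 CArG boxes side by side, at -82 to -73 and -72 to -63, and 1.47% of all windows held at least 1. None of the 5 motifs was matched in the windows of Dusp6, Spry1, Spry2, Spred1, Spred2 or Spred3. The other shares over all windows were 12% for the ETS core, 6.75% for the AP-1 site and 12.4% for the TATA box. A match describes the letters in this window and is not a measured site.

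**Figure D3:**
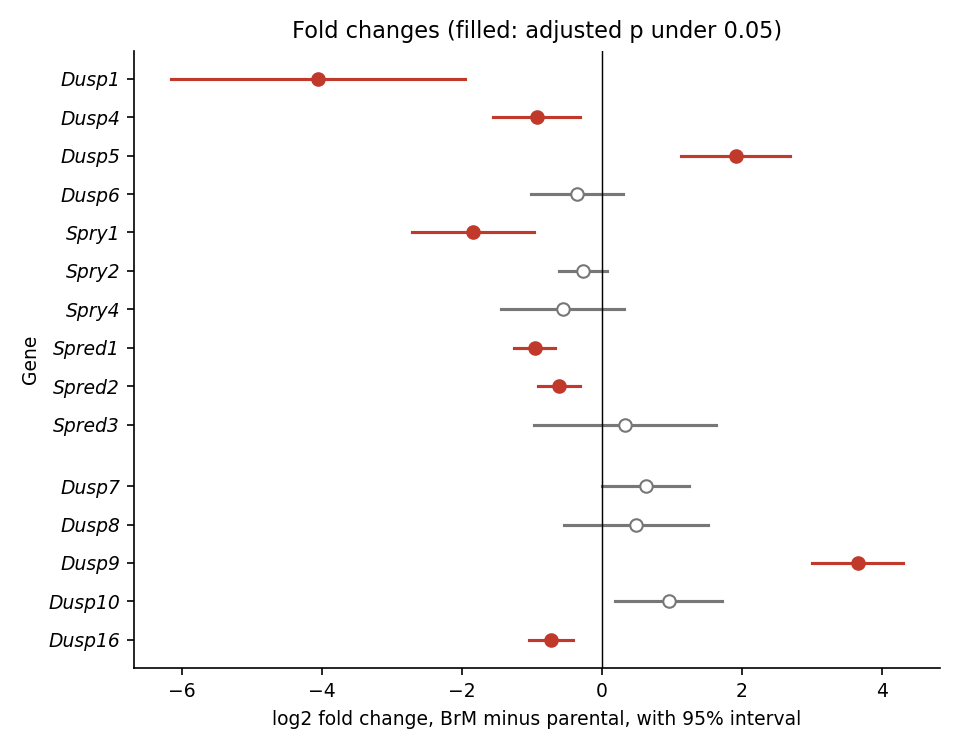
Log2 fold change, BrM minus parental, with its unadjusted 95% interval from limma (bars) for the 10 members and, below them, 5 other classical MAP kinase phosphatases; filled red points passed at an adjusted p under 0.05. Dusp5 and Dusp9 lie to the right of 0, and Dusp1, Dusp4, Spry1, Spred1, Spred2 and Dusp16 to the left.

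The remaining classical MAP kinase phosphatases were Dusp2, Dusp7, Dusp8, Dusp9, Dusp10 and Dusp16. Of the 5 that were tested, 1 rose, 1 fell and 3 did not pass (40% called, beside 28.1% of all tested genes), with a median log2 fold change of 0.63. Dusp2, a phosphatase of immune cells, was below the expression filter at no more than 4.78 normalised counts in any library. Dusp9, a cytoplasmic ERK phosphatase like Dusp6, stood at 84.5, 98 and 98.2 in the parental libraries and 834, 1379 and 1463 in the BrM libraries. The groups did not overlap, and Dusp9 rose 12.6-fold (1225 ± 342 against 93.6 ± 7.88, n = 3; log2 fold change 3.66, SE 0.27, adjusted p = 0.000362 by limma). Dusp16, which acts on JNK and p38, fell 1.65-fold (1796 ± 181 against 2952 ± 162, n = 3; adjusted p = 0.00925 by limma). Both calls held in all 21 alternatives.

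On a scale that allows genes to be compared, normalised counts per kilobase of exon, the 10 classical phosphatases summed to 10874 ± 2393 in the parental libraries and 9057 ± 1213 in the BrM libraries (n = 3 each). The sums of the groups overlapped. Dusp6 held 48.2%, 46% and 36.2% of the summed level in the parental libraries and 40.5%, 40.4% and 39.5% in the BrM libraries. Dusp4 held 26.3% to 37% in the parental libraries and 18.4% to 23.3% in BrM, and Dusp1 3.01% to 10.1% against 0.181% to 1.17%. Dusp5 took 8.76% to 12.1% in BrM, where the parental libraries had 1.32% to 3.36%, and Dusp9 2.93% to 6.42%, where they had 0.231% to 0.415%. Dusp10 took 4.75% to 7.46% in BrM and 1.48% to 3.26% in the parental libraries. Dusp7 took 8.89% to 14.7% in BrM and 4.7% to 10.7% in the parental libraries, with a mean BrM share of 12.6%, above the 10.1% of Dusp5. For Dusp1, Dusp4, Dusp5, Dusp9 and Dusp10 the shares of the groups did not overlap, and for Dusp2, Dusp6, Dusp7, Dusp8 and Dusp16 they did. Beside this, 48.0% of all tested genes did not overlap in normalised counts. Dusp10 did not pass the test of its counts (adjusted p = 0.0667 by limma). The shares of the 10 phosphatases follow from their normalised counts and were given no test.

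**Figure D4:**
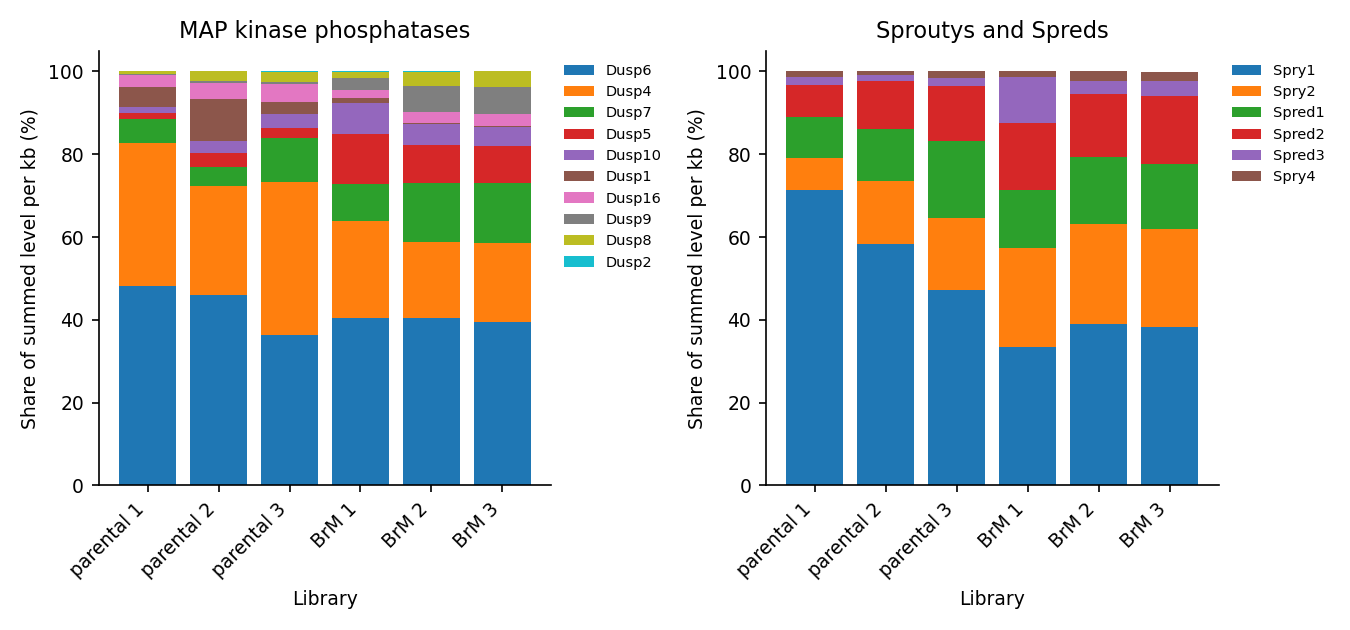
Share (%) of the summed level per kilobase of exon that each gene took in each library, for the 10 classical MAP kinase phosphatases (left) and for the 3 Sproutys and 3 Spreds (right). On the left the Dusp5, Dusp9 and Dusp10 bands are wider and the Dusp4 and Dusp1 bands narrower in the BrM libraries, and on the right Spry1 takes 47.2% to 71.3% in the parental libraries and 33.4% to 39% in BrM.

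Among the Sproutys, Spry1 fell and the others did not pass the test. Spry1 (chromosome 3, 37639947 to 37644598, plus strand), an adaptor-binding inhibitor of signalling from receptor tyrosine kinases to Ras, was at 19075, 10604 and 6571 in the parental libraries and 2850.3, 3143 and 3246 in the BrM libraries. The BrM libraries were close together, whereas the highest parental value was 2.9-fold above the lowest, and the groups did not overlap. Spry1 fell 3.57-fold (3079.6 ± 205 against 12083 ± 6382, n = 3; log2 fold change -1.84, SE 0.36, adjusted p = 0.0125 by limma). The call held in all 21 alternatives, and its adjusted p was highest, at 0.0497, without parental replicate 2. Parental replicate 1 was the highest and parental replicate 3 the lowest parental library both for Spry1 and for the summed fibroblast and pericyte markers. Of these markers Postn and Dcn had that order, whereas Pdgfrb, Pdgfra, Col1a1, Col1a2 and Col3a1 were highest in parental replicate 2. Among the other members only Dusp6, which did not pass, had that order. Mapk3 and Phlda1, outside the members, had it too. The part of the fibroblast and pericyte markers in the fall of Spry1 was not tested. A predicted gene on the other strand, Gm42922, shares 710 exon bases with Spry1.

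Spry2, an inhibitor of the same step, was at 1507, 1973 and 1743 in the parental libraries and 1476, 1399 and 1441 in the BrM libraries. The BrM values were all just below the lowest parental value, and the difference did not pass (1439 ± 38.3 against 1741 ± 233, n = 3; log2 fold change -0.27, SE 0.15, adjusted p = 0.22 by limma; 95% interval -0.62 to 0.08). With array weights it passed as lower (-0.36, adjusted p = 0.0149). Spry4, also an inhibitor of Ras activation, was the least abundant of the 3 Sproutys per kilobase of exon, at 552, 277 and 366 in the parental libraries and 173, 299 and 335 in the BrM libraries. Its groups overlapped, with BrM replicate 1 the lowest of the 6, and the difference did not pass (269 ± 85 against 398 ± 140.2, n = 3; log2 fold change -0.56, SE 0.37, adjusted p = 0.301 by limma). The 95% interval of -1.44 to 0.32 spans 0.

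Spred1 and Spred2 fell by less than 2-fold in the derivative, with narrow spreads. Spred1 (chromosome 2, 117121374 to 117182279, plus strand), the Spred whose loss causes Legius syndrome in people, was at 6146, 5285 and 6035 in the parental libraries and 2795, 3048 and 3152 in the BrM libraries. The groups lay apart, and within each the highest value was no more than 1.16-fold above the lowest. Spred1 fell 1.94-fold (2998 ± 183 against 5822 ± 468, n = 3; log2 fold change -0.96, SE 0.12, adjusted p = 0.00252 by limma), the smallest adjusted p of the 10, and the call held in all 21 alternatives. Spred2 (chromosome 11, 19924375 to 20024026, plus strand), which also recruits neurofibromin, was at 3313, 3329 and 2951 and 2173, 1929 and 2205 in the same order. It fell 1.52-fold (2102 ± 151 against 3198 ± 214, n = 3; log2 fold change -0.61, SE 0.12, adjusted p = 0.014 by limma). The groups did not overlap, but the call was lost without parental replicate 1 (adjusted p = 0.0521), parental replicate 2 (0.0625) or BrM replicate 2 (0.0688), and with BrM replicates 2 and 3 averaged (0.0553).

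Spred3, a Spred that lacks a working c-Kit binding domain, was at 1103, 577 and 584 in the parental libraries and 2070.3, 567 and 631 in the BrM libraries. Replicate 1 was the high library in both groups, and the other 4 lay between 567 and 631. The difference did not pass (1089.6 ± 849.9 against 755 ± 302, n = 3; log2 fold change 0.33, SE 0.54, adjusted p = 0.684 by limma), and its sign rested on BrM replicate 1, without which the log2 fold change was -0.26 (adjusted p = 0.51). Spred3 shares 202 exon bases with Ggn on the other strand, which was at 54.8 to 100.5 normalised counts in the parental libraries and 37.3 to 79.3 in the BrM libraries.

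The 10 transcripts covered a wide range of levels. By mean normalised count per kilobase of exon, Dusp6 (4818), Spry1 (4158) and Dusp4 (3535) led in the parental libraries, and the ranges of neighbours in this order overlapped. Then came Spred1 (858), Spry2 (834), Spred2 (692), Dusp1 (663), Dusp5 (249), Spred3 (121) and Spry4 (83.7), where each gene overlapped with the next except Spry2 with Spred2. In the BrM libraries Dusp6 (3640.4) led, apart from Dusp4 (1852), which was apart from Spry1 (1059.7). Spry1 overlapped with Dusp5 (926), which had moved from the eighth to the fourth place. Spry2 (689), Spred2 (455) and Spred1 (442) came next, with the Spreds overlapping. Spred3 (175), Spry4 (56.6) and Dusp1 (53) closed the order, the last pair overlapping. The summed level of the 6 Sprouty and Spred genes per kilobase was 6748 ± 2246 in the parental libraries and 2878 ± 91.3 in the BrM libraries (n = 3 each), without overlap, with Spry1 holding 47.2% to 71.3% of the parental sum.

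**Figure D5:**
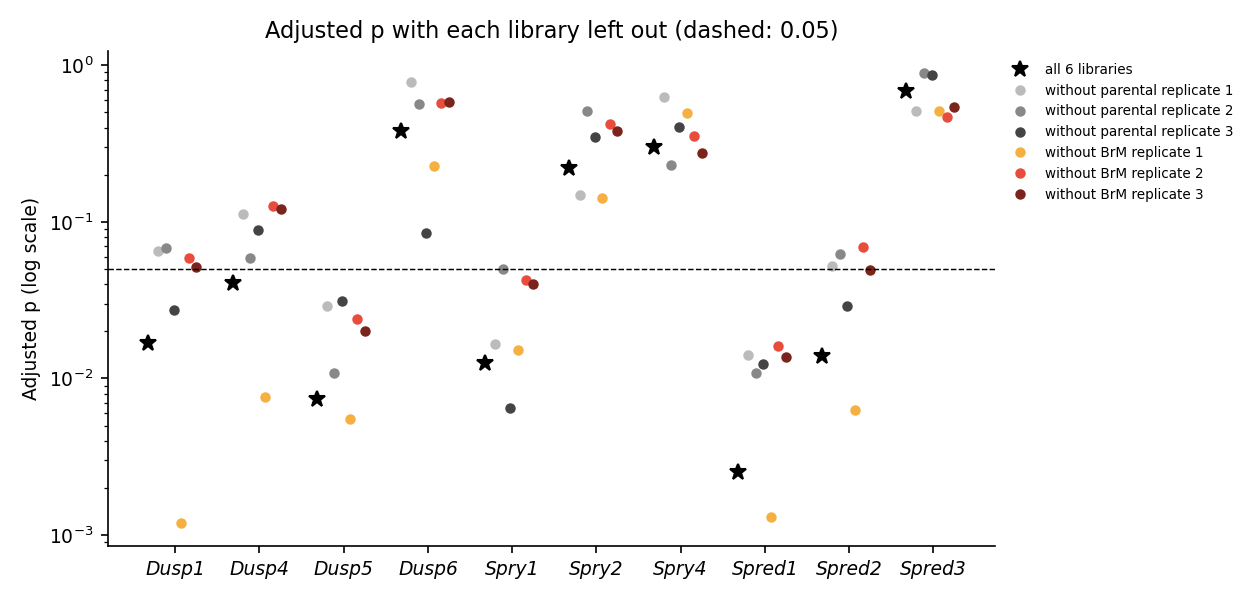
Adjusted p (log scale) from limma for each of the 10 genes with all 6 libraries (star) and with each library left out (dots), and the threshold of 0.05 as a dashed line. Dusp5, Spry1 and Spred1 stay under the line in all 6 cases, Dusp1 in 2, Spred2 in 3 and Dusp4 only without BrM replicate 1.

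BrM replicate 1 differed from BrM replicates 2 and 3 in several of these genes. Relative to the mean of the other BrM libraries it was 6.77-fold higher for Dusp1, 3.45-fold higher for Spred3, 1.68-fold higher for Dusp5, 1.56-fold higher for Dusp4 and 1.83-fold lower for Spry4. Thus 2 of 10 members were at least 2-fold apart, beside 26.0% of all tested genes, and 5 of 10 at least 1.5-fold, beside 46.3%. Between BrM replicates 2 and 3 themselves, 9 of the 10 were within 1.25-fold, Dusp1 being the exception. With 1 library against a pair there is no test.

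In the Ras to ERK cascade that these genes restrain, 21 genes were listed and tested, of which 2 rose, 4 fell and 15 did not pass. The share called was 28.6%, near the 28.1% of all tested genes, with a median log2 fold change of -0.13. Mapk3, which encodes ERK1, fell 3.08-fold (15735, 14246 and 11953 in the parental libraries and 7176, 3574 and 3587 in the BrM libraries; adjusted p = 0.00916 by limma). The docking proteins Gab1 and Gab2 fell 2.09-fold (adjusted p = 0.00688) and 4.26-fold (0.0129), and the adaptor Shc1 fell 1.56-fold (0.0221). Rps6ka1, which encodes an ERK-activated kinase and was named after its values were seen, rose 1.57-fold (adjusted p = 0.0453 by limma). Gab2 lost its call without parental replicate 1 (0.0538), and the Shc1 call was lost in each case where parental replicate 1, parental replicate 2, BrM replicate 2 or BrM replicate 3 was left out (0.061 to 0.0755) or BrM replicates 2 and 3 were averaged (0.0665). Erbb2 itself was at 42315, 30959 and 42628 in the parental libraries and 70490.2, 41468 and 47069 in the BrM libraries and did not pass (adjusted p = 0.243).

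Of 15 other transcripts used as a readout of ERK output, all tested, 3 were called higher, 2 lower and 10 neither. The share called was 33.3%, beside 28.1% of all tested genes, with a median log2 fold change of -0.10. Phlda1, an ERK-induced pleckstrin homology protein, fell 2.72-fold (7683 ± 1910.4 against 20966 ± 5356, n = 3; adjusted p = 0.00755 by limma), and the ETS factor Etv1 fell 5.68-fold (30.4 ± 8.92 against 196 ± 129, n = 3; adjusted p = 0.0124). The membrane protein gene Emp1 rose 2.58-fold (103095 ± 9543 against 41332 ± 14294, n = 3; adjusted p = 0.0105). The ephrin receptor gene Epha4 rose 4.26-fold (adjusted p = 0.0116), a call lost without parental replicate 2 (0.0508 by limma). Epha2, another ephrin receptor gene, rose 1.84-fold (adjusted p = 0.0238 by limma; named after its values were seen). Etv4 and Etv5, the ETS factors most often read with Dusp6, were at 2829.8 ± 624 against 3011 ± 604 and 5135 ± 1239 against 5552 ± 1078 (n = 3) and did not pass (adjusted p = 0.78 and 0.719; named after their values were seen). For both, as for Dusp6, the groups overlapped.

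Among 11 tested brakes of other kinds, which act on receptors or on Ras, 1 was called higher, 3 lower and 7 neither (36.4% called, beside 28.1% of all tested genes), with a median log2 fold change of -0.10. Errfi1, a feedback inhibitor that binds the kinase domain of ErbB receptors, was at 4571, 6136 and 3797 in the parental libraries and 12822, 10694 and 10699.8 in the BrM libraries. Every BrM value was above every parental value, and Errfi1 rose 2.4-fold (log2 fold change 1.26, SE 0.20, adjusted p = 0.00545 by limma), a call that held in all 21 alternatives. Lrig1, which promotes the degradation of ErbB receptors, fell 2.52-fold (10306 ± 4872 against 24843 ± 6550.3, n = 3; adjusted p = 0.0315) and was not called once any library except BrM replicate 1 had been left out (0.0604 to 0.106) or BrM replicates 2 and 3 averaged (0.0986). The Ras GTPase activators Dab2ip and Rasa2 fell 2.02-fold (adjusted p = 0.0225) and 1.51-fold (0.0486). The Dab2ip call was lost on leaving out parental replicate 2, BrM replicate 2 or BrM replicate 3 (0.0592 to 0.0753) and on averaging BrM replicates 2 and 3 (0.0664). Rasa2 was not called in 14 of 21 alternatives, among them each case with a library left out except BrM replicate 1 (0.0888 to 0.136). Spry3, the remaining Sprouty, had no read in any library.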

How the data were processed

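The deposited values were signal values, read counts per gene scaled by 1 factor per library by the authors. The submitters' processing notes name GRCm38 and GRCh38, with HTSeq and STAR, without versions; the source of the scaling and the strand setting are not given in the sources used here. In each library 100% of values above 0 were whole multiples of the value of 1 read within 0.01 read, so reads were recovered. BrM was compared with parental in R 4.3.3 with limma 3.58.1, with an intensity trend, on log2 values after adding a pseudocount of 1, two-sided, for 13821 genes with a mean of at least 10, with Benjamini-Hochberg adjustment over all of them and a threshold of 0.05. All 10 members passed that filter. Folds are differences of group means on that log2 scale. On recovered reads, edgeR 4.0.16 called 3753 genes and DESeq2 1.42.0 called 5075 of the 13741 it gave an adjusted p. Exon lengths and overlaps came from GENCODE M21 (GRCm38), promoters from RefSeq (GRCm38.p6). The methods were tested on simulated data. The members, lists, tests and alternatives were chosen with earlier results of these data known. Genes were named by rule: the members, Erbb2, Mapk3, and up to 4 called genes of each list with the smallest p-values; others are marked, and a few listed genes are not reported here. Figures used matplotlib 3.10.9.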

Additional observations from a re-analysis of the deposited data

How the results depend on the processing

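With all 6 libraries 3881 genes were called. The number was 8485 with array weights, 2279 with BrM replicates 2 and 3 averaged and 2191 to 6519 with 1 library left out. The count of members called lower was 5. It was 2 with BrM replicates 2 and 3 averaged, and 2 to 5 with 1 library left out, lowest on leaving out parental replicate 1, parental replicate 2 or BrM replicate 2 and highest without BrM replicate 1. It was 7 with array weights. The count called higher was 1 in every alternative run. Spred3 changed sign with array weights (-0.13) and without BrM replicate 1 (-0.26) and passed in neither, its values with 1 library left out running from -0.26 to 0.67; the cause was not tested. Quantile normalization moved the median log2 fold change of all genes from -0.05 to 0.09 and the share of calls that were higher from 43.6% to 56% (2339 higher, 1835 lower, beside 1691 and 2190); members kept their direction under it and under the other scalings. With the column number as a replicate block, added after seeing the data, 4040 genes and the same number of members (1 higher, 5 lower) were called. Same-numbered libraries deviated together for numbers 1 and 3 (r = 0.304 and 0.326 across genes) but not for 2 (-0.088). Parental replicate 3 deviated with BrM replicate 2 (0.311) much as with BrM replicate 3. These values therefore cannot tell whether libraries of the same number belong together. Blocks or terms by title number were not run, because the columns could not be tied to titles. The shallowest member total was 460 reads, for Dusp1 over the BrM group.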

Other observations

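Genes of the p38 and JNK cascade were read beside Dusp1, Dusp10 and Dusp16. They include upstream kinases and the factors Jun and Atf2. Which p38 or JNK forms each phosphatase acts on was not tested. The p38 and JNK cascade list had 13 genes, all tested, of which 2 were called higher, 1 lower and 10 neither (23.1% called, beside 28.1% of all tested genes), with a median log2 fold change of -0.04. Mapk13, which encodes p38 delta, was at 1436, 1395 and 1295 in the parental libraries and 5812, 3485 and 3298 in the BrM libraries. It rose 2.95-fold (log2 fold change 1.56, SE 0.23, adjusted p = 0.00441 by limma), a call that held in all 21 alternatives. Mapk11, which encodes p38 beta, rose 1.68-fold (adjusted p = 0.0456) and was not called once parental replicate 2, parental replicate 3, BrM replicate 2 or BrM replicate 3 was left out (0.092 to 0.142), with BrM replicates 2 and 3 averaged (0.094), with no intensity trend (0.0602) or with no filter on low values (0.0517). The p38 and JNK substrate Atf2 fell 1.53-fold (adjusted p = 0.012) and was not called once parental replicate 2, BrM replicate 2 or BrM replicate 3 was left out (0.0506 to 0.0581) or BrM replicates 2 and 3 were averaged (0.0536). Mapk14, which encodes p38 alpha, was at 3049 ± 781 against 3926 ± 188 (n = 3) and did not pass (adjusted p = 0.209; named after its values were seen).

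Dusp10, a phosphatase of p38 and JNK, was at 603, 932 and 862 in the parental libraries and 2373, 1234 and 1209.8 in the BrM libraries. The groups did not overlap, the difference did not pass (limma adjusted p = 0.0667), and BrM replicate 1 was 1.94-fold above the mean of the other BrM libraries. Dusp7, a cytoplasmic ERK phosphatase, was at 3742 ± 544 against 2479 ± 752 (n = 3) and did not pass (adjusted p = 0.117). Both were named after their values were seen.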
